A study of Mus musculus with 7 samples.

Results

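Mouse Cyp3a cytochrome P450 genes were examined for nuclease hotspots, which are stretches of the genome where cleavage tags cluster above background. The members were the 6 genes Cyp3a11, Cyp3a13, Cyp3a16, Cyp3a25, Cyp3a41a and Cyp3a44, taken by name from the 22365 genes with protein-coding transcripts, and every hotspot that overlapped a gene body or the 20 kb on either side of it was counted. These windows spanned 418 kb and held 27 of the 60910 Benzonase hotspots, 28 of the 57675 Cyanase hotspots and 28 of the 72286 DNase I hotspots. Hotspots connected by an overlap of at least 1 bp were merged into regions, of which 34 of 94491 lay in the windows.

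The lists came from livers of male C57BL/6 mice of 8 weeks. Benzonase and Cyanase, endonucleases that work in detergent, were added at 0.25, 1 and 4 U to pulverized frozen liver, with 1 library at each amount. DNase I was used on nuclei isolated from fresh liver, and its list has 1 labelled sample although its track line names 2 pooled. The tags of each nuclease were pooled before hotspots were called, so that each list is 1 call with no spread between replicates, no depth and no score, and no test between nucleases was possible. Between DNase I and the other lists, the nuclease, the fresh or frozen state of the tissue and its preparation changed together and cannot be told apart.

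Enzymes of the Cyp3a family sit in the endoplasmic reticulum of hepatocytes and enterocytes, where they oxidise drugs, steroids and bile acids with electrons passed on by P450 oxidoreductase. Their genes arose by repeated duplication and lie in a tandem cluster, so that neighbours share long stretches of nearly identical sequence. In liver their transcription is known to be driven by the xenobiotic receptors PXR and CAR together with hepatocyte factors such as HNF4A, FOXA and C/EBP proteins, and for several members also by the sex-dependent pattern of growth hormone.

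The sequences that the results turn on were read from the mm9 genome and are given 5′ to 3′ on the minus strand, on which all 6 genes are transcribed. The 200 bases before the annotated start (+1) of each gene are shown because the start sites differed between the lists. They lie at chr5:146691541-146691740 (Cyp3a11), chr5:138362848-138363047 (Cyp3a13), chr5:146230593-146230792 (Cyp3a16), chr5:146821195-146821394 (Cyp3a25), chr5:146531713-146531912 (Cyp3a41a) and chr5:146617451-146617650 (Cyp3a44). Capitals mark the letters TGTTTAC (known for FOXA), CAAAGTCCA (HNF4A) and TTGCNNAA (C/EBP, with N for any base), searched on both strands.
Cyp3a11 promoter: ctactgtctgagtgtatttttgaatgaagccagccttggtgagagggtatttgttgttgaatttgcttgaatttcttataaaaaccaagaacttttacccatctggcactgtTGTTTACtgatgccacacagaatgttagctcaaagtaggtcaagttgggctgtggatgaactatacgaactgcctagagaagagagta
Cyp3a13 promoter: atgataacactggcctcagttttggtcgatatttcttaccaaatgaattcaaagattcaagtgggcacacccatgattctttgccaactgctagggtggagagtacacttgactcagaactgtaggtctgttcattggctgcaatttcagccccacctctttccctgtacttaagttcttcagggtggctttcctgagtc
Cyp3a16 promoter: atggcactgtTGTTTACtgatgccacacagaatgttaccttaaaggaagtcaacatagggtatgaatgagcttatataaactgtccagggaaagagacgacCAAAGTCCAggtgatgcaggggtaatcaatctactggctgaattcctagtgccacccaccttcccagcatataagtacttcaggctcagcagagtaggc
Cyp3a25 promoter: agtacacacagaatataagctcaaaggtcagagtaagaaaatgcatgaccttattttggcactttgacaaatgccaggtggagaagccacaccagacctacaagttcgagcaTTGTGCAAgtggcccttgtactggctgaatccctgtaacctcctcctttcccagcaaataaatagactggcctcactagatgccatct
Cyp3a41a promoter: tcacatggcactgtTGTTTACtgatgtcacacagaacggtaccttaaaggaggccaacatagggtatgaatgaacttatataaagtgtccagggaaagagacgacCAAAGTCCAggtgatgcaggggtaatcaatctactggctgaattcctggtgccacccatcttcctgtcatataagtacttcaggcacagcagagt
Cyp3a44 promoter: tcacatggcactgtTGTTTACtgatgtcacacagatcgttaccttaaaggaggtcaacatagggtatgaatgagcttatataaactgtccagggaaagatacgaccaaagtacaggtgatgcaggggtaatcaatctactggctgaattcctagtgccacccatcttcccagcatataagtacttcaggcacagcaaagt

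Part of an element in intron 3 is shown because the element held hotspots of all 3 nucleases in Cyp3a16, Cyp3a41a and Cyp3a44 and none in Cyp3a11. The stretches are chr5:146526054-146526203 (Cyp3a41a), chr5:146611863-146612013 (Cyp3a44), chr5:146224901-146225051 (Cyp3a16) and chr5:146685967-146686113 (Cyp3a11). Capitals mark bases that are substituted or inserted relative to Cyp3a41a.
Cyp3a41a intron 3: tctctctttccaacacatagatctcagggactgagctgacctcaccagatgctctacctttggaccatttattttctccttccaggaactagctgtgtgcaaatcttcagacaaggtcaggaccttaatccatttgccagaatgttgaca
Cyp3a44 intron 3: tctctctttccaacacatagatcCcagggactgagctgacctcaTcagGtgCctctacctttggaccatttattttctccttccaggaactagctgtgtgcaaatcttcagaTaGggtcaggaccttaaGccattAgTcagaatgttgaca
Cyp3a16 intron 3: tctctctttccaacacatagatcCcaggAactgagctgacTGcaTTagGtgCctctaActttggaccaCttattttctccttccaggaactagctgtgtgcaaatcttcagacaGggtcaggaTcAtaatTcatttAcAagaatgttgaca
Cyp3a11 intron 3: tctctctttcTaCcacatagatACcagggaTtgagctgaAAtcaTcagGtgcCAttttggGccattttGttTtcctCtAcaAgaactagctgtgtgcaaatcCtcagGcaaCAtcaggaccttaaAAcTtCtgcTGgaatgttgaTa

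An element in intron 7 showed another division, with hotspots in Cyp3a11, Cyp3a44 and Cyp3a16 and none in Cyp3a41a. Its stretches are chr5:146679177-146679326 (Cyp3a11), chr5:146604965-146605113 (Cyp3a44), chr5:146215428-146215579 (Cyp3a16) and chr5:146519104-146519252 (Cyp3a41a), and capitals mark bases substituted or inserted relative to Cyp3a11.
Cyp3a11 intron 7: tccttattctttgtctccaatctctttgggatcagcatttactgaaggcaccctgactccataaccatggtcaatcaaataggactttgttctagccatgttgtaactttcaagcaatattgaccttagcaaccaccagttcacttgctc
Cyp3a44 intron 7: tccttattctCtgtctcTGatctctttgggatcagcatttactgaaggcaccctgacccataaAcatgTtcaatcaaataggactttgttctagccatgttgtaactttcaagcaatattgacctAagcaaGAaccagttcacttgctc
Cyp3a16 intron 7: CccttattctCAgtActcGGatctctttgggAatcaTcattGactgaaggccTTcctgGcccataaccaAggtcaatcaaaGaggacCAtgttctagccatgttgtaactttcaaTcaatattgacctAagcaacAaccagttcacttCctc
Cyp3a41a intron 7: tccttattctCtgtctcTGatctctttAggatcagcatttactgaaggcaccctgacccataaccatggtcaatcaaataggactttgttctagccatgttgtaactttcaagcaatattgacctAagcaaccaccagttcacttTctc

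Cyp3a11 also had an upstream element found with all 3 nucleases, of which the central 200 bases shared by the 3 hotspots (chr5:146692894-146693093) are shown, and a hotspot in intron 4 found with Benzonase and Cyanase but not with DNase I (chr5:146682639-146682889, the Benzonase hotspot). The upstream stretch held none of the 3 motifs above, and capitals in the intron 4 hotspot mark its CpG dinucleotides.
Cyp3a11 upstream element: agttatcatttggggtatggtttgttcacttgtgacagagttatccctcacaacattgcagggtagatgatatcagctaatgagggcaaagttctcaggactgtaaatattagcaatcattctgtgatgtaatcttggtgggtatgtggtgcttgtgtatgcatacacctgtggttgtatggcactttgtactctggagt
Cyp3a11 intron 4: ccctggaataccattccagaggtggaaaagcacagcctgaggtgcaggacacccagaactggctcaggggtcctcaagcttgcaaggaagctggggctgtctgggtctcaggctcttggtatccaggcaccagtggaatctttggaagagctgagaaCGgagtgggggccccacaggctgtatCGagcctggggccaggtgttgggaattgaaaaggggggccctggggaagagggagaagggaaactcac

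The labels were checked against the lists before the Cyp3a genes were compared. All 8 hepatocyte markers (such as Alb and Ttr) had a TSS inside a hotspot of every list, compared with 46.1% of all protein-coding genes. For single lists the share of all genes was 57.4% with Benzonase, 55.7% with Cyanase and 47.4% with DNase I. Of the 4 Kupffer cell markers, 0 were marked with Benzonase, 1 with Cyanase and 3 with DNase I, and of the 4 sinusoidal endothelial markers 1, 1 and 0. In the same order, the 4 stellate cell markers gave 2, 4 and 1, the 4 bile duct markers 2, 1 and 1, the 4 markers of small intestine 0, 0 and 1, and the 6 markers of other tissues 0, 1 and 1. Hepatocyte markers were thus the single group marked in full by each nuclease. Counts in the other groups lay on both sides of the shares of all genes. They ran from 0 of 4 (such as Kupffer cell markers with Benzonase) to 4 of 4 (stellate cell markers with Cyanase).

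Sex-linked and sex-dependent genes were looked at beside the male label. Xist, the RNA gene that is expressed from the inactive X chromosome of females, held 1 Benzonase hotspot (chrX:100676593-100677764) and 1 Cyanase hotspot (chrX:100676931-100677734) within its first exons, and 0 DNase I hotspots. Chromosome X held 2.96% of the Benzonase, 2.97% of the Cyanase and 3.15% of the DNase I hotspots. Chromosome Y held 67 (0.110%), 60 (0.104%) and 110 (0.152%) in the same order, and of 7 Y-linked genes 3, 2 and 4 had a TSS in a hotspot, so that Y sequence was present in every list. Among 10 genes known for higher expression in female liver, 6 had a TSS in a Benzonase hotspot, 7 in a Cyanase hotspot and 1 in a DNase I hotspot, compared with 57.4%, 55.7% and 47.4% of all protein-coding genes. Of these genes, 6 (Cyp2a4, Cyp2b9, Cyp2b13, Hao2, Cyp4a14 and Cux2) had a TSS in a Benzonase or Cyanase hotspot and in none of DNase I, a pattern found in 11.8% of all genes. Among 11 genes known for higher expression in male liver, 6 had a TSS in a Benzonase hotspot, 5 in a Cyanase hotspot and 10 in a DNase I hotspot, and 4 of the last (Cyp4a12a, Cyp4a12b, Cyp2d9 and Mup20) had none with the other nucleases, a pattern found in 0.867% of all genes. With a hotspot within 1 kb of a TSS, the counts for Benzonase, Cyanase and DNase I were 8, 8 and 2 of the 10 genes. For the 11 genes they were 7, 8 and 11. The shares of all genes above hold for a TSS inside a hotspot, and those at 1 kb are not given here. Both gene lists, and the look at X and Y, were chosen after values had been seen. Because the deposited lists are pooled, no library could be left out, and the part that the sex of the livers had in the results below was not tested.

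All 6 Cyp3a genes had hotspots in each list. At least 1 hotspot in the gene body or its flanks was found for 6 of 6 with every nuclease, against 82.2% of all protein-coding genes for Benzonase, 80.7% for Cyanase and 79.3% for DNase I. Cyp3a16 had the most, with 8 Benzonase, 7 Cyanase and 7 DNase I hotspots, and Cyp3a41a had 2, 3 and 3, the last numbers being shared with Cyp3a13 for Cyanase and with Cyp3a44 for DNase I. Cyp3a11 had 6 in each list. The genes lie on chromosome 5, where Cyp3a16 (chr5:146197178-146230592), Cyp3a41a (chr5:146505635-146531712), Cyp3a44 (chr5:146585559-146617450), Cyp3a11 (chr5:146666002-146691540) and Cyp3a25 (chr5:146788770-146821194) form the cluster, and Cyp3a13 (chr5:138334160-138362847) stands 7834 kb apart from it.

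Most regions around the Cyp3a genes were found with every nuclease. Of the 34 regions, 20 (58.8%) held hotspots of all 3 nucleases, against 40.0% of all regions. DNase I alone accounted for 4 (11.8%), against 28.3% of all regions, and 7 (20.6%) held Benzonase or Cyanase hotspots without DNase I, against 26.3%. The remaining 3 regions paired DNase I with a single other nuclease, at Cyp3a16 (2 regions) and Cyp3a44 (1 region). The windows, which are centred on genes, held 6.46 Benzonase, 6.70 Cyanase and 6.70 DNase I hotspots per 100 kb, compared with 2.29, 2.17 and 2.72 over the whole genome, genes and the rest together.

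**Figure D1:**
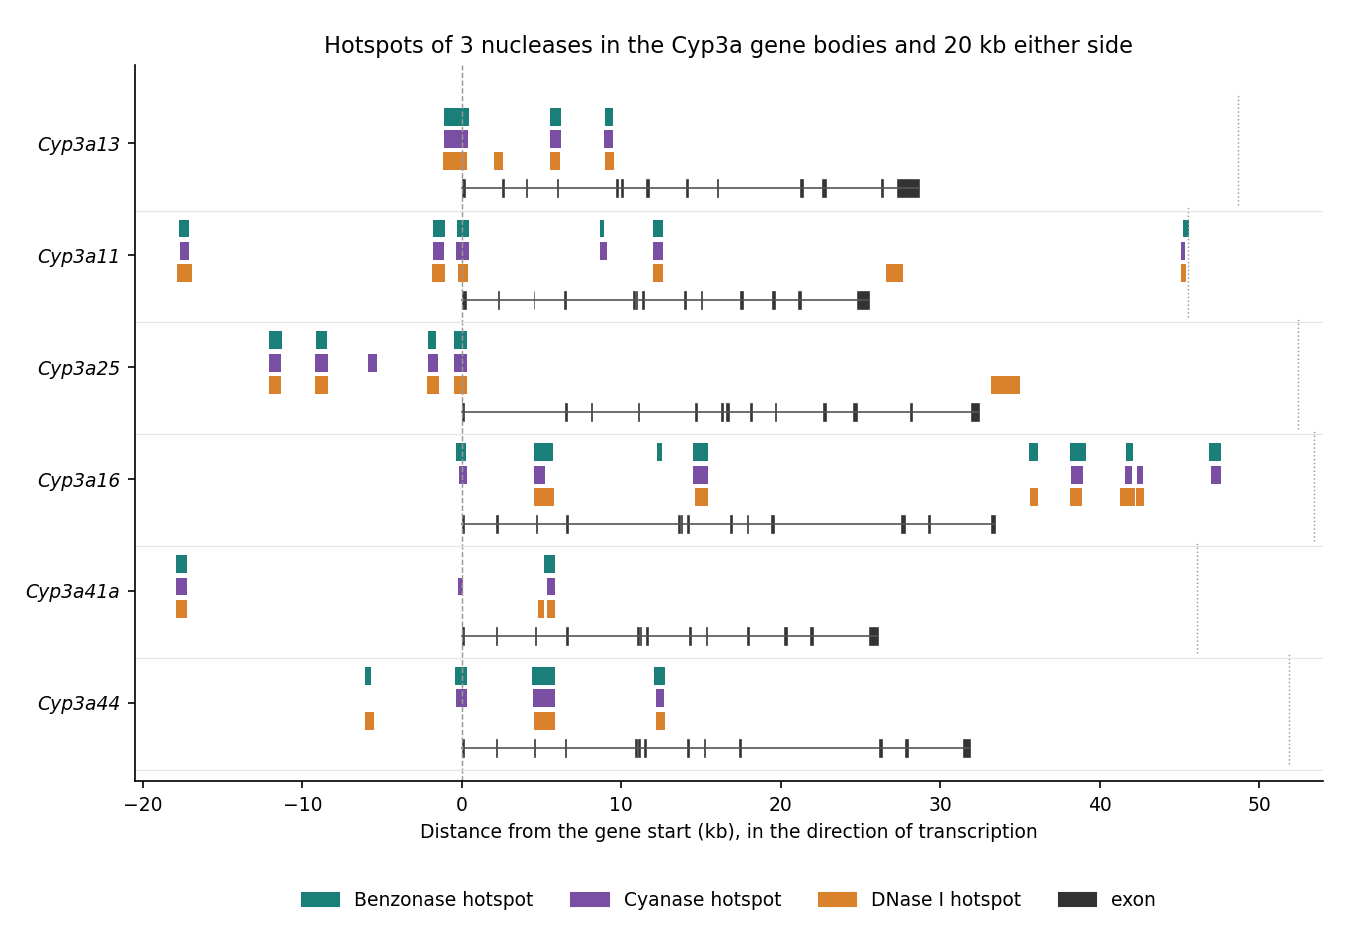
Hotspots of Benzonase (green), Cyanase (purple) and DNase I (orange) along each Cyp3a gene, drawn by distance from the gene start in kb, with exons in black and the end of each window as a dotted line. Cyp3a16 carries a group of hotspots past its 3′ end, whereas Cyp3a25 and Cyp3a11 each have a wide DNase I hotspot there.

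The start sites split the family. Those of Cyp3a11, Cyp3a13 and Cyp3a25 lay in hotspots of all 3 nucleases, whereas those of Cyp3a16 and Cyp3a44 lay in Benzonase and Cyanase hotspots without DNase I, and that of Cyp3a41a in a Cyanase hotspot alone. In counts, 5 of 6 genes had a TSS in a Benzonase hotspot (57.4% of all protein-coding genes), 6 of 6 in a Cyanase hotspot (55.7%) and 3 of 6 in a DNase I hotspot (47.4%). A TSS in hotspots of all 3 nucleases was found for 3 of 6, close to the 46.1% of all genes. A TSS marked by Benzonase or Cyanase and not by DNase I was found for the other 3, where 11.8% of all genes had this pattern, and 0 of 6 were marked by DNase I alone (0.867% of all genes). With 6 genes of shared descent, these shares are a description of the members.

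Cyp3a11 encodes the main drug-metabolising Cyp3a enzyme of adult mouse liver and is a classical target of PXR. Its start lay in a Benzonase hotspot at chr5:146691100-146691830 (731 bp), a Cyanase hotspot at chr5:146691083-146691891 (809 bp) and a DNase I hotspot at chr5:146691131-146691809 (679 bp). Upstream, a second region ran from -1850 to -1031 relative to the start, with widths of 787, 708 and 816 bp for Benzonase, Cyanase and DNase I. Of the 32-mers in this region 99.9% occur at a single place in the genome, and its GC content was 37.3%, below the 42.7% of the 5 kb on each side. Farther up, between -17839 and -16925, each nuclease again gave a hotspot, the widest with DNase I (915 bp, against 658 and 565 bp). Within the gene, intron 7 held a region from 11958 to 12622 bp with widths of 611, 624 and 632 bp, which was the most even of the Cyp3a11 regions outside the start. A DNase I hotspot of 1021 bp without a partner lay past the 3′ end, from 26617 to 27637 bp.

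Cyp3a25, a liver and intestinal enzyme that hydroxylates testosterone, showed a closely matching set of bounds at its start. The Benzonase hotspot (chr5:146820872-146821677, 806 bp) and the Cyanase hotspot (chr5:146820871-146821678, 808 bp) differed by 1 bp at either end, and the DNase I hotspot (chr5:146820866-146821701, 836 bp) enclosed both. Its other shared regions were all upstream, from -2178 to -1461, from -9238 to -8378 and from -12119 to -11306. No hotspot lay within the gene beyond the one at its start, although the gene is 32425 bp long. A Cyanase hotspot without a partner (546 bp, GC content 51.6%) lay between -5867 and -5322. The widest DNase I hotspot of all windows, chr5:146786188-146788032 with 1845 bp, began 33163 bp from the start, past the 3′ end, and had no partner either.

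Cyp3a13, which is expressed in intestine and liver and lies apart from the cluster, had the widest hotspots of the Benzonase and Cyanase lists in the windows, both at its start. They ran over chr5:138362419-138363984 (1566 bp, Benzonase) and chr5:138362441-138363982 (1542 bp, Cyanase), and the DNase I hotspot over chr5:138362499-138364056 (1558 bp). Their upstream ends were at -1137, -1135 and -1209 in the same order, so that most of each hotspot lay before the gene. In the gene, regions from 5515 to 6212 bp, over exon 4 and the introns beside it, and from 8939 to 9538 bp, in intron 4, were found with all 3 nucleases. DNase I alone marked 570 bp from intron 1 into exon 2. All 4 of its regions lay at the start or inside the gene, with none in the flanks beyond.

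Cyp3a16, a gene best known for its expression in fetal and newborn liver, had start site hotspots at chr5:146230328-146230939 (612 bp, Benzonase) and chr5:146230260-146230802 (543 bp, Cyanase). Those of Cyp3a44, whose expression in adult liver is known to be female-specific, were chr5:146617160-146617879 (720 bp, Benzonase) and chr5:146617125-146617805 (681 bp, Cyanase). Cyp3a41a, another female-specific gene, had a single start site hotspot with Cyanase, chr5:146531669-146531928, which at 260 bp was near the narrowest of that list (251 bp) and ended 44 bp into the gene. The nearest DNase I hotspots were 4508, 4505 and 4770 bp from the starts of Cyp3a16, Cyp3a44 and Cyp3a41a, so that a rule of 1 kb around the TSS or of 2 kb upstream gave the same 3 genes. When narrow hotspots (below the first quartile of their list) were dropped, Cyp3a41a lost its Cyanase call and the Cyanase count fell to 5 genes. The same pattern was found for 6 of the 10 genes higher in female liver, a list chosen after values had been seen. Of all protein-coding genes, 11.8% had it. The part of sex in the pattern was not tested.

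**Figure D2:**
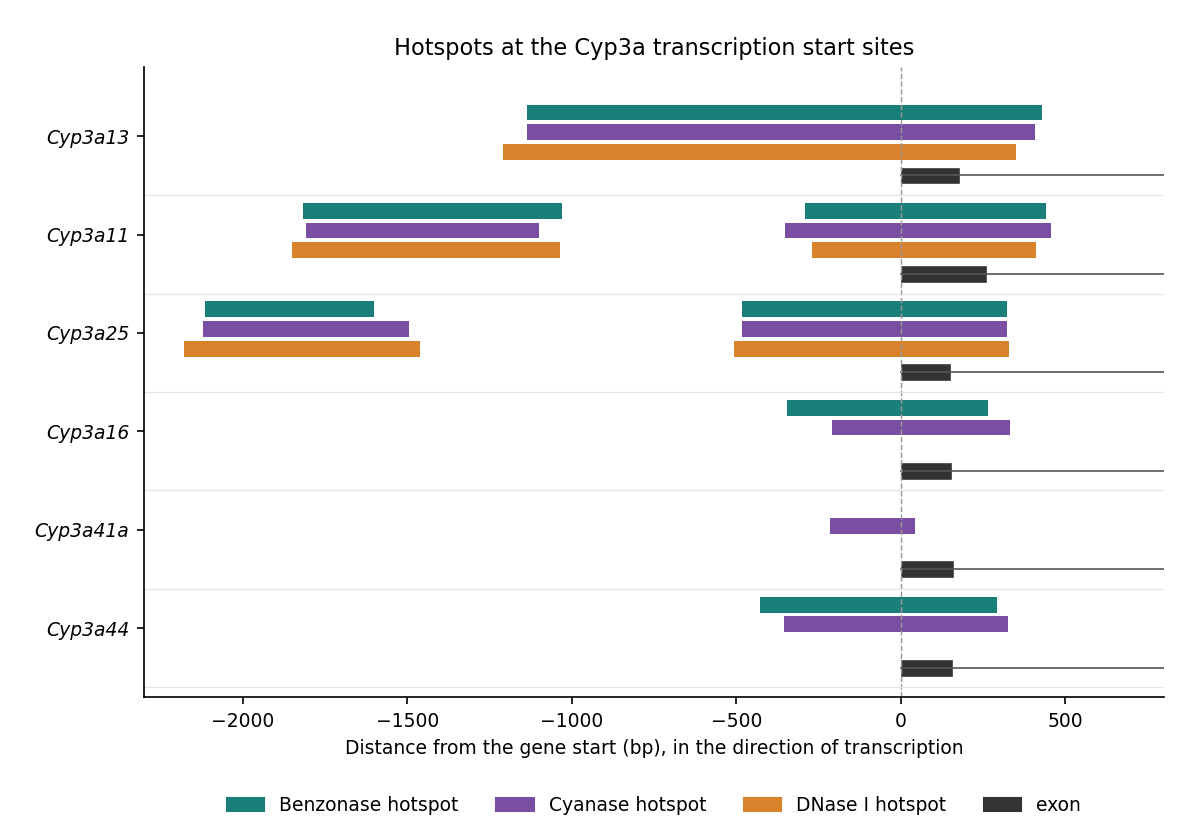
Hotspots around the start of each Cyp3a gene, drawn by distance from the gene start in bp, with Benzonase in green, Cyanase in purple, DNase I in orange and exons in black. DNase I hotspots cover the start of Cyp3a13, Cyp3a11 and Cyp3a25 and are missing at the starts of Cyp3a16, Cyp3a41a and Cyp3a44.

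The start regions of the last 3 genes were nearly the same in sequence. Aligned over its full length, the Cyp3a44 region was 96.4% identical to Cyp3a16, 95.6% to Cyp3a41a and 78.4% to Cyp3a11. The 200 bases before the Cyp3a44 start matched Cyp3a16 from -204 to -5 in 95.5% (9 substitutions) and Cyp3a41a from -200 to -1 in 94.0% (12 substitutions). In Cyp3a11 they matched the stretch from -102 to 95 in 76.5% of positions, so that the annotated Cyp3a11 start lies upstream of the place that aligns with the other starts. The Cyp3a25 start region aligned with no other listed gene by the rule used and was 96.5% identical to the non-member Cyp3a59 and 91.0% to Cyp3a57, both of which had a TSS in hotspots of all 3 nucleases. Cyp3a41b, the near copy of Cyp3a41a, had a Cyanase hotspot of 445 bp at its TSS and none of the others, as Cyp3a41a did. Counterparts were sought by alignment from 2.5 kb upstream to 3 kb past each gene and needed at least 50% of a region aligned, a rule chosen after the hotspots had been seen.

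Away from the start, the 3 genes without a DNase I hotspot at the TSS carried hotspots of every nuclease in the intron 3 element. In Cyp3a44 it extended from 4422 to 5863 bp, over exon 3 and the introns beside it, and was covered by 1428 bp of Benzonase, 1401 bp of Cyanase and 1358 bp of DNase I hotspots. In Cyp3a16 the region ran from 4497 to 5773 bp, with 1193, 691 and 1225 bp. In Cyp3a41a a region from 5163 to 5846 bp held 684, 500 and 506 bp, and DNase I added a hotspot of 372 bp at 4771 to 5142 bp. Cyp3a44 was 92.3% identical to Cyp3a16 and 94.2% to Cyp3a41a over the element. The Cyp3a11 counterpart, 78.5% identical and with 98.3% of its 32-mers unique, held 0 hotspots of each list. Among the stretches printed above, Cyp3a11 differed from Cyp3a41a by 27 substitutions and 5 gap bases, against 8 and 1 for Cyp3a44 and 15 and 1 for Cyp3a16. At that stretch Cyp3a16 was covered by Benzonase and DNase I, and its Cyanase hotspot lay nearer the start, from 4542 to 5232 bp.

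The intron 7 element did not follow the start sites. Cyp3a11, Cyp3a44 and Cyp3a16 had hotspots of all 3 nucleases there, from 11958 to 12622 bp, from 12054 to 12760 bp and from 14473 to 15449 bp, with 93.7% identity between Cyp3a11 and Cyp3a44 and 85.5% between Cyp3a11 and Cyp3a16. The Cyp3a41a counterpart was 93.5% identical to Cyp3a11 and had 0 hotspots of each list. In that counterpart 13.4% of 32-mers were found at a single place in the genome, compared with 74.1% in Cyp3a11, and in the stretch printed above 0% were, although it differs from Cyp3a11 by 6 substitutions and 1 gap base. Elsewhere in Cyp3a41a, the unique share was 8.60% for the DNase I hotspot at 4771 to 5142 bp and 23.2% for the region from 5163 to 5846 bp. In the printed intron 3 stretch of Cyp3a41a it was 21.3%. The part of unique sequence in the missing intron 7 hotspots was not tested.

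Other elements had hotspots in fewer of the genes or with fewer nucleases. The upstream element of Cyp3a11 had counterparts in Cyp3a16 (74.7% identical), Cyp3a41a (73.5%) and Cyp3a44 (73.1%), with 0 hotspots in any of them. Of the 32-mers in these counterparts, 45.9%, 14.4% and 59.0% were unique in the same order, compared with 99.9% in Cyp3a11. The region past the 3′ end of Cyp3a11, found with DNase I alone, was 86.1% identical to a stretch past the end of Cyp3a16 that had a Benzonase and a DNase I hotspot. Over all searched regions, 17 of 23 had a counterpart in another listed gene, giving 45 ordered comparisons. The same nucleases were present on both sides in 14 of them, and no nuclease was present at the counterpart in 16.

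**Figure D3:**
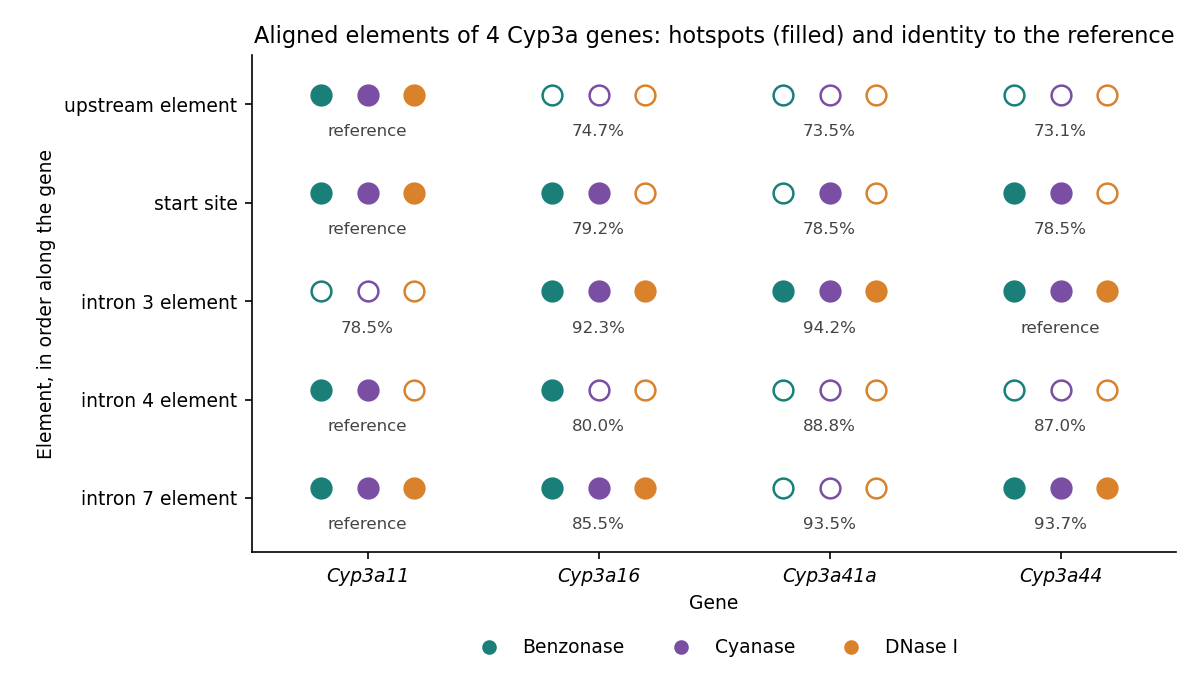
Presence of hotspots (filled circles) of Benzonase (green), Cyanase (purple) and DNase I (orange) at 5 aligned elements of 4 Cyp3a genes, with the identity in percent to the gene marked as reference (for the intron 4 element of Cyp3a16, that of its own region aligned to Cyp3a11). The intron 3 element is filled in every gene but Cyp3a11, and the intron 7 element in every gene but Cyp3a41a.

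Past its 3′ end Cyp3a16 had a group of regions, where Cyp3a11 had 2, Cyp3a25 had 1 and the other members had 0. They lay between 35584 and 47629 bp from the start and numbered 5, of which 2 were found with all 3 nucleases, 1 with DNase I and Benzonase, 1 with DNase I and Cyanase and 1 with Benzonase and Cyanase. The region from 42250 to 42803 bp had the lowest GC content of all regions in the windows, 32.5%. Upstream of Cyp3a41a, a region from -17944 to -17232 was found with all 3 nucleases at nearly equal widths of 713, 655 and 711 bp. Cyp3a44 had a Benzonase and DNase I region from -6075 to -5532, of which 45.8% of 32-mers were unique.

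Base composition differed between the classes of regions. The 7 regions with Benzonase or Cyanase and without DNase I averaged 49.0% GC (SD 5.32), the 20 regions of all 3 nucleases 41.6% (SD 3.03) and the 4 regions of DNase I alone 40.9% (SD 0.748). Over the genome the same classes averaged 54.7%, 50.02% and 42.3%, so that the order was kept and each Cyp3a value was lower. The windows as a whole had a GC content of 41.4%. The highest value was that of the Cyp3a11 region in intron 4 (58.0%, from 8635 to 9096 bp), found with Benzonase (251 bp, the least width of that list) and Cyanase (462 bp), and the 5 kb on each side of it had 42.2%. Its printed Benzonase hotspot held 2 CpG dinucleotides. Counterparts in Cyp3a41a (55.8% GC) and Cyp3a44 (56.8% GC) had 0 hotspots, and the matching Cyp3a16 region (52.7% GC) was found with Benzonase alone.

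Widths differed little between nucleases. The median hotspot width in the windows was 698 bp for Benzonase (quartiles 536 and 789), 638.5 bp for Cyanase (536 and 732) and 714.5 bp for DNase I (560 and 821), compared with 652, 641 and 649 bp over the whole lists. In 18 regions with exactly 1 hotspot of each nuclease, the medians were 700.5, 653 and 722.5 bp. DNase I gave the widest hotspot in 7 of these 18, compared with 43.1% of 33922 such regions genome-wide, and Benzonase was wider than Cyanase in 11 (68.1% genome-wide). The bounds lay close together, since the median distance between matching edges was 35 bp for Benzonase and Cyanase, 32.5 bp for DNase I and Benzonase and 38 bp for DNase I and Cyanase. Genome-wide these distances were 33, 71 and 70 bp. A shift of 1 bp in the starts, depending on whether the deposited start column counts from 0 or 1, could not be settled from the lists and changed no TSS call of the 6 genes.

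**Figure D4:**
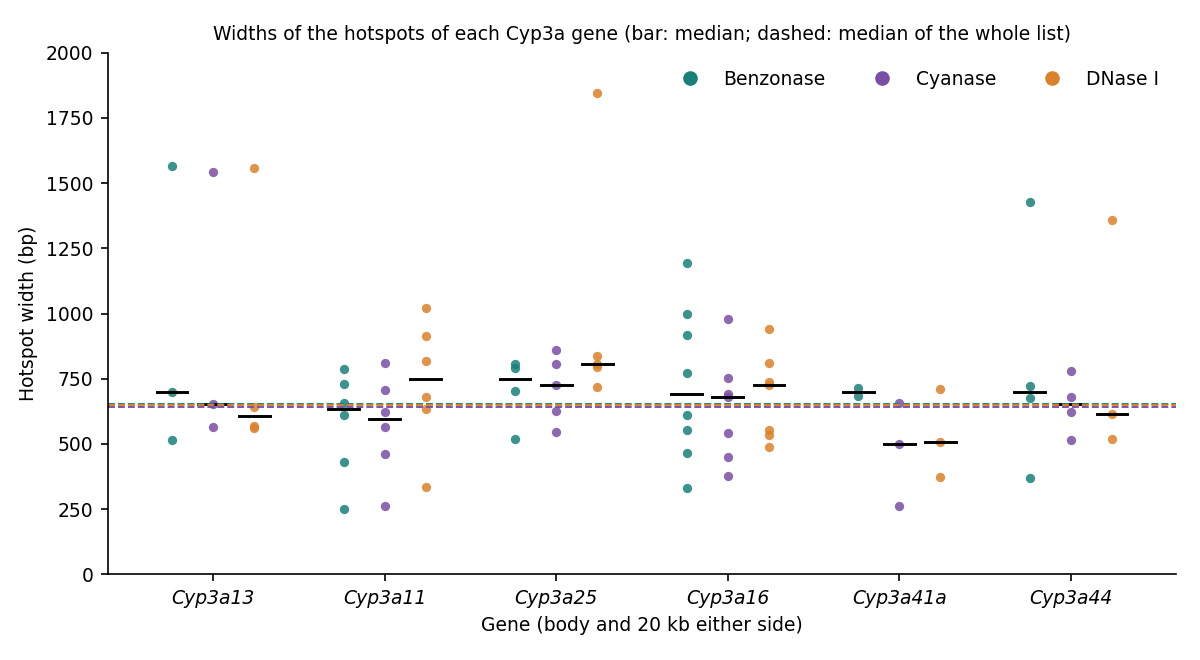
Width in bp of each hotspot (point) by Cyp3a gene, with Benzonase in green, Cyanase in purple and DNase I in orange, with the median of each gene and nuclease as a bar and the median of each whole list as a dashed line. The widest point is the 1845 bp DNase I hotspot of Cyp3a25, followed by the start site hotspots of Cyp3a13.

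Hotspots covered 4.64% of the bases in the windows for Benzonase, 4.36% for Cyanase and 5.17% for DNase I. In the gene bodies alone the order of Benzonase and DNase I turned round, with 5.08% and 4.71%. Of single genes, Cyp3a16 was covered most with Benzonase (7.96%) and Cyanase (6.09%), and Cyp3a25 with DNase I (6.90%). The median over all protein-coding genes was 3.22% for Benzonase, 2.90% for Cyanase and 2.98% for DNase I, and Cyp3a41a alone lay below it in every list, with 2.11%, 2.14% and 2.40%. Coverage by DNase I exceeded that by Benzonase at Cyp3a11 (6.71% and 5.16%), Cyp3a13 (4.85% and 4.04%), Cyp3a25 (6.90% and 3.89%) and Cyp3a41a, and was lower at Cyp3a16 (6.53% and 7.96%) and Cyp3a44 (3.46% and 4.44%). Among all genes, the DNase I value of Cyp3a25 was at or above 79.4% of genes and that of Cyp3a44 at or above 54.7%. The median covered share of the 6 genes was 4.24% for Benzonase, 4.47% for Cyanase and 5.69% for DNase I, compared with 4.17%, 3.57% and 5.10% for the 89 P450 genes outside Cyp3a. Over all members and lists, the place among all genes ran from 38.1% (Cyp3a41a, Benzonase) to 80.8% (Cyp3a16, Benzonase).

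Unique sequence varied widely across the family. The share of 32-mers in the gene body found at a single place in the genome was 95.9% for Cyp3a13, 77.7% for Cyp3a11, 69.8% for Cyp3a25, 63.8% for Cyp3a16, 51.4% for Cyp3a44 and 11.3% for Cyp3a41a. At the start regions it was 99.4% for Cyp3a11, 94.8% for Cyp3a13, 61.2% for Cyp3a44, 58.9% for Cyp3a25, 51.2% for Cyp3a16 and 13.8% for Cyp3a41a. Cyp3a41a and its near copy Cyp3a41b (9.99% in the gene body) had the lowest shares of the 9 Cyp3a genes in the annotation. The length of the sequenced tags is not given in the sources used here, and the share found with 24-mers was lower for every gene.

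**Figure D5:**
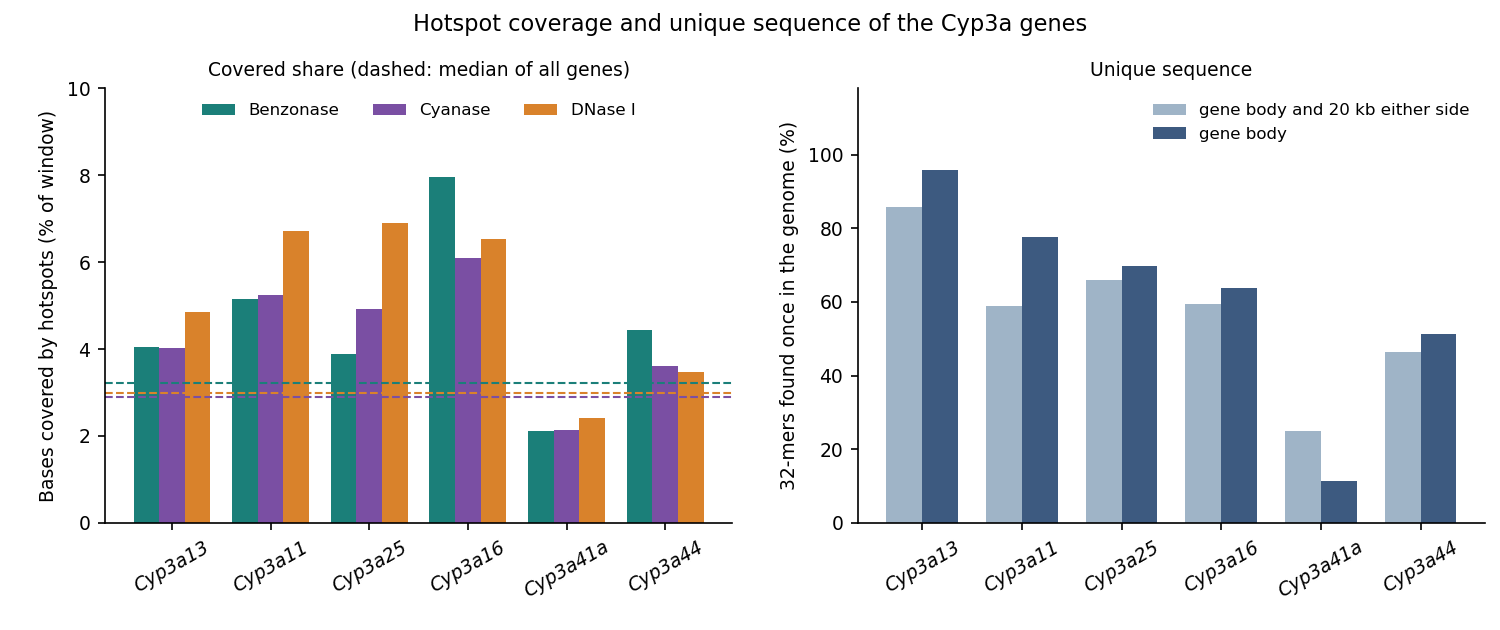
Left, percent of bases of each Cyp3a gene and its 20 kb flanks covered by hotspots of Benzonase (green), Cyanase (purple) and DNase I (orange), with the medians over all protein-coding genes as dashed lines. Right, percent of 32-mers found at a single place in the genome, in the window (light) and the gene body (dark), with Cyp3a41a lowest at 24.9% and 11.3%.

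Several of the promoters shared motif letters. In the 300 bases from 250 before to 50 after the TSS, TGTTTAC occurred in 4 of 6 genes (Cyp3a11, Cyp3a16, Cyp3a41a and Cyp3a44), compared with 3.11% of 22360 genes with a complete window. The letters CAAAGTCCA occurred in 3 of 6 (Cyp3a11, Cyp3a16 and Cyp3a41a), compared with 0.456% of genes. In Cyp3a44 the stretch from -95 to -87 that aligns with the latter differed by C7A, counted from 1 at the first letter of CAAAGTCCA. In Cyp3a16 and Cyp3a41a the first letters lay at -190 and -186 for TGTTTAC and at -99 and -95 for CAAAGTCCA, whereas in Cyp3a11 they lay at -88 and 2, nearer to the annotated start or past it. TTGCNNAA was found in Cyp3a25 alone, at -88 to -81 on the opposite strand (10.3% of genes), and Cyp3a13 held none of the 3. As the copies share their ancestry, these matches do not count as separate observations.

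Nuclear receptor letters were searched as well. AGGTCA or AGTTCA occurred on either strand in 4 of 6 TSS windows (25.2% of genes) and in the central 300 bases of 17 of the 34 regions (40.7% of all regions). Arranged as direct repeats spaced by 3 or 4 bases or as everted repeats spaced by 6, the forms known for PXR and CAR, they had 0 exact matches in the 6 windows and 0 in the full length of the 34 regions. Such exact repeats were rare everywhere, in 0.0741%, 0.104% and 0.0254% of the centres of all regions. Only these exact letters were searched, and nothing follows for imperfect sites.

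Genes that act with the Cyp3a enzymes were looked at in the same way, and the shares of all genes were 57.4% for Benzonase, 55.7% for Cyanase and 47.4% for DNase I. Of 16 regulators of Cyp3a transcription, 16 had a TSS in a Benzonase hotspot, 16 in a Cyanase hotspot and 13 in a DNase I hotspot. Nr1i2, which encodes PXR, and Nr1i3, which encodes CAR, were marked by all 3, as were Hnf4a, Rxra and Foxa2, and the genes without DNase I were Vdr, Esr1 and Cux2. P450 oxidoreductase (Por), cytochrome b5 reductase (Cyb5r3) and Alas1, the first enzyme of haem synthesis, were marked in each list, and Cyb5a had no entry of that name in the annotation. Of 17 other genes regulated by PXR or CAR, 13 had a TSS in a hotspot of each list when lists are taken singly, and 11 in all 3 (46.1% of all genes). Cyp2b9 and Abcb1b were marked without DNase I, and Cyp2c55 and Slco1a4 with DNase I alone.

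Among cytochrome P450 genes, a start marked without DNase I was found in 9 of the 89 outside Cyp3a, near the 11.8% of all genes, and a start marked by DNase I alone in 7, compared with 0.867% of all genes. All 3 nucleases marked 42 of the 89, near the 46.1% of all genes, and none marked 31. The Cyp2c genes, another tandem family of drug-metabolising enzymes with 15 members here, had 10 starts marked by all 3, 3 by DNase I alone and 0 without DNase I. The listed Cyp3a genes had 3, 0 and 3 in that order. The 3 P450 genes outside Cyp3a whose coverage was closest to Cyp3a11 over the 3 lists were Cyp2a12, Cyp21a1 and Cyp2j5, at distances of 0.961, 1.36 and 1.46 percentage points. The TSS of Cyp2a12 and Cyp2j5 lay in hotspots of all 3 nucleases and that of Cyp21a1 in none.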

How the data were processed

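The authors pooled the aligned tags of each nuclease and called hotspots (FDR 0%, adjusted for input). The paper also names a threshold on tag density, set at the mode. It reports fewer hotspots for each nuclease than the deposited lists hold, and the reason was not tested. The deposited lists give chromosome, start and end only, with 0 further value columns. Coordinates refer to mm9, count from 1 and were joined to GENCODE M1 genes. Named genes were the 6 members, other Cyp3a genes, fixed lists of regulators, electron donors, PXR or CAR genes, tissue markers and all P450 genes, the 3 P450 genes closest to Cyp3a11 in coverage, every start site hotspot and the widest hotspot of each list. The members and lists were chosen with earlier results of these data known. A gene was marked when a TSS of a protein-coding transcript lay inside a hotspot. Uniqueness was the share of 32-mers found at a single place on both strands of the genome. Counterparts were aligned with blastn 2.17.0 (E value 1e-10). Merging and motif search were tested on simulated data. Python 3.11.15, numpy 2.4.6, scipy 1.17.1, numba 0.67.0, Biopython 1.88 and matplotlib 3.10.9 were used.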

Additional observations from a re-analysis of the deposited data

Results flagged for a closer look

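The Xist gene, which the comparisons of the Cyp3a genes do not use, held 1 Benzonase hotspot of 1172 bp and 1 Cyanase hotspot of 804 bp, where DNase I gave 0. They lay between 793 and 1964 bp and between 823 and 1626 bp from the Xist start, inside its first exons. All samples are labelled male, and the origin of these hotspots was not tested.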

How the results depend on the processing

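No paired analysis was possible because each list is 1 pooled call and no result comes from a test. Alternatives numbered 98, and leaving out a replicate was not possible. The 18 for the number of genes with a TSS in a hotspot and the 15 for regions stayed within 1.5 times the reported count. Those regions were of all 3 nucleases, of DNase I alone and of Benzonase and Cyanase together without DNase I. For small counts this rule is wide, as regions of DNase I alone ranged from 3 to 6 around the reported 4. The 9 for median width stayed inside the 95% interval of the median, which treats hotspots of 1 pooled call as separate draws. Of the 6 for mean GC content, 5 stayed within 1 SD of the reported mean. Over the central 150 bp, the regions of DNase I alone averaged 39.8% GC, below that range (40.2% to 41.7%). Counting the gene body alone lowered the hotspots to 15 for Benzonase, 16 for Cyanase and 14 for DNase I. The covered share, in the order Benzonase, Cyanase and DNase I, was 5.83%, 5.29% and 6.54% with flanks of 5 kb, 5.41%, 5.15% and 6.32% with 10 kb, 3.45%, 3.37% and 3.82% with 50 kb, 5.08%, 4.65% and 4.71% in the gene body alone, and 6.50%, 6.08% and 7.09% of unique bases. Without Cyp3a13 it was 4.76% for Benzonase and 4.43% for Cyanase. In the gene body alone Benzonase thus covered more than DNase I, the reverse of the order in the windows, and the cause was not tested. With 24-mers the unique share in the windows fell for all 6 genes, to between 17.7% (Cyp3a41a) and 80.5% (Cyp3a13). Within 1 kb of a TSS, a distance chosen after seeing the data, the genes higher in female liver marked without DNase I numbered 6, as before, and those higher in male liver marked by DNase I alone 3 in place of 4. Taken singly, the Benzonase, Cyanase and DNase I lists then marked 8, 8 and 2 of the genes higher in female liver, in place of 6, 7 and 1. Of the genes higher in male liver they marked 7, 8 and 11, in place of 6, 5 and 10. The shares of all genes at this distance are not given here. The numbers of regions in other classes were not recomputed. The deposited lists give no depth, and the part of depth in missing hotspots was not tested. The Cyp3a11 counterpart of the intron 3 element had 0 hotspots with 98.3% of its 32-mers unique, and the part of unique sequence was not tested.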

Other observations

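Start sites marked by Benzonase or Cyanase and not by DNase I occurred at 9 of 89 P450 genes outside Cyp3a, a share near the 11.8% of all protein-coding genes with this pattern, and the 9 were named after their values were seen. They were Cyp1b1, Cyp24a1, Cyp2a4, Cyp2b13, Cyp2b9, Cyp2j9, Cyp4a10, Cyp4a14 and Cyp4b1. The reverse pattern occurred at Cyp2c44, Cyp2c55, Cyp2c69, Cyp2d9, Cyp4a12a, Cyp4a12b and Cyp4a31. Of the first set, Cyp2a4, Cyp2b9, Cyp2b13 and Cyp4a14 belong to the list above of genes higher in female liver. Cyp1b1, Cyp24a1, Cyp2j9, Cyp4a10 and Cyp4b1 do not. Of the second set, Cyp2d9, Cyp4a12a and Cyp4a12b belong to the list of genes higher in male liver. Cyp2c44, Cyp2c55, Cyp2c69 and Cyp4a31 do not. As both lists were chosen after values had been seen, this repeats the counts above and is not a separate observation.

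Around the non-member Cyp3a41b, hotspots of all 3 nucleases lay in the copy of the intron 3 element. Of their 32-mers, 17.2% (Benzonase), 22.3% (Cyanase) and 23.1% (DNase I) were unique. The stretch past the end of Cyp3a59 that aligned in full with the 1845 bp DNase I hotspot of Cyp3a25, at 93.7% identity, had 0 hotspots of each list.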
